A study of Mus musculus with 4 samples.

Results

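The genes described here are 47 genes of the amino acid response, known from earlier work as ATF4 itself, its partners and its targets. They and the lists set beside them were chosen by name, with earlier results of these data known. They comprise 6 transcription factors, 7 other stress-induced effectors, 7 enzymes of serine and one-carbon metabolism, 6 other enzymes of amino acid metabolism, 9 amino acid transporters and 12 cytosolic tRNA synthetases. Of the 47, 46 had at least 1 probe set under their own symbol, among 18193 genes so named on the array, and Pycr1, which had none, enters below only in the promoter search. The cells were MC3T3-E1, an established preosteoblast line from the calvaria of newborn C57BL/6 mice that makes mineralised matrix when given ascorbate and a phosphate donor. They were kept in osteogenic medium or in normal medium, with RNA taken at day 6 and at day 3, and each of the 4 combinations was hybridised to 1 Affymetrix mouse whole-genome expression array. Normal medium was MEM α with 10% fetal bovine serum. To make it osteogenic, 150 µM ascorbic acid 2-phosphate, a stable vitamin C, and a phosphate donor, beta-glycerophosphate at 10 mM, were added to the same base and serum. The labels do not say whether a culture was pooled, and with 1 array per group no difference below has a replicate error or a p-value.

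ATF4 is a leucine zipper transcription factor whose protein is made when kinases that sense unloaded tRNA, endoplasmic reticulum stress, haem shortage or viral RNA phosphorylate the initiation factor eIF2. General translation then slows, while upstream reading frames in the Atf4 message favour its own translation, so the Atf4 transcript is only part of its control. ATF4 pairs with C/EBP family proteins on a short composite motif and induces genes that import, make and charge amino acids onto tRNA. In mouse osteoblasts it is known as a factor needed for normal amino acid supply and type I collagen synthesis.

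At day 6 nearly all of these genes had a higher signal in osteogenic than in normal medium, and at day 3 most had a slightly lower one. Of 46 members measured at day 6, 44 lay above zero in the log2 difference of osteogenic minus normal medium, 18 were higher by 2-fold or more and 0 were lower by 2-fold or more, with a median of 0.79. Over all 11888 genes measured at day 6 the median was 0.01, 51.2% lay above zero, 4.1% were higher by 2-fold and 2.78% lower. At day 3, 10 of 44 measured members lay above zero, 0 were higher and 1, Atf5, was lower by 2-fold, with a median of -0.19. Over all 11835 genes measured at day 3 the median was 0.01, 51.0% lay above zero, 1.97% were higher and 1.55% lower. A gene counted as measured when its signal was above 57.8, the middle of all probe set values, on at least 1 of the arrays compared, and 43 of the 46 members were above it on all 4 arrays. The other 3 were Slc7a3, Slc7a11 and Stc2.

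The day 6 osteogenic array held the highest signal of the 4 for 36 of the 46 members, 78.3%, against 29.8% of the 12467 genes above the floor on any array. The day 6 normal array held the highest for 0 members, and the lowest for 27 of the 43 above the floor on all 4 arrays, 62.8%, against 22.2% of 10256 such genes. The control probe set for the 5′ end of 18S ribosomal RNA read 746 on the day 6 osteogenic array and 5202 to 9162 on the other 3, and the part of this in the results was not tested. The 3′ to 5′ signal ratio of the actin control was 1.25 on the day 6 osteogenic array and 1.17 to 1.23 on the others, and that of the Gapdh control was 0.756 to 0.769 over all 4 arrays. Of 8 osteoblast markers, 5 had a probe set under their own symbol alone, namely Sp7, Alpl, Col1a1, Col1a2 and Ibsp. These 5 were above the floor of 57.8 on all 4 arrays. Their summed signals were 108278 to 133878, mostly from Col1a1 and Col1a2. Col1a1 and Col1a2 had log2 medium differences of 0.03 and 0.07 at day 6 and -0.21 and -0.26 at day 3. Ibsp, Alpl and Sp7 stood at 5.44, 1.70 and 0.38 at day 6 and at 3.53, 1.55 and 0.69 at day 3. The part of these differences in the results was not tested. Of the marker lists of other cell types, the adipocyte list had 3 of 5 genes with a probe set so named. Of these 3, 0 were above the floor on any array. On each array 0 or 1 of 5 endothelial, 1 of 5 leukocyte, 1 or 2 of 5 skeletal muscle and 2 of 5 chondrocyte genes were above it. Summed signals were 13.7 to 70.1 for adipocyte, 92.4 to 153 for endothelial, 230 to 353 for leukocyte and 302 to 356 for skeletal muscle genes. Adipoq, Myod1, Ptprc, Pecam1 and Acan were below the floor on all 4 arrays. The leukocyte gene Csf1r (169 to 242) and the muscle gene Acta1 (166 to 249) were above it on all 4. The muscle gene Ckm was above it on all but the day 3 osteogenic array, and the endothelial gene Kdr (79.1) only on that array. The summed chondrocyte signal was 6217 in osteogenic against 2633 in normal medium at day 6 and 3892 in osteogenic against 2767 in normal medium at day 3, with Col2a1 and Sox9 as the genes above the floor, and its part in the results was not tested. RNA came from whole cultures, in which fewer cells of a kind and less RNA per cell cannot be told apart.

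**Figure D1:**
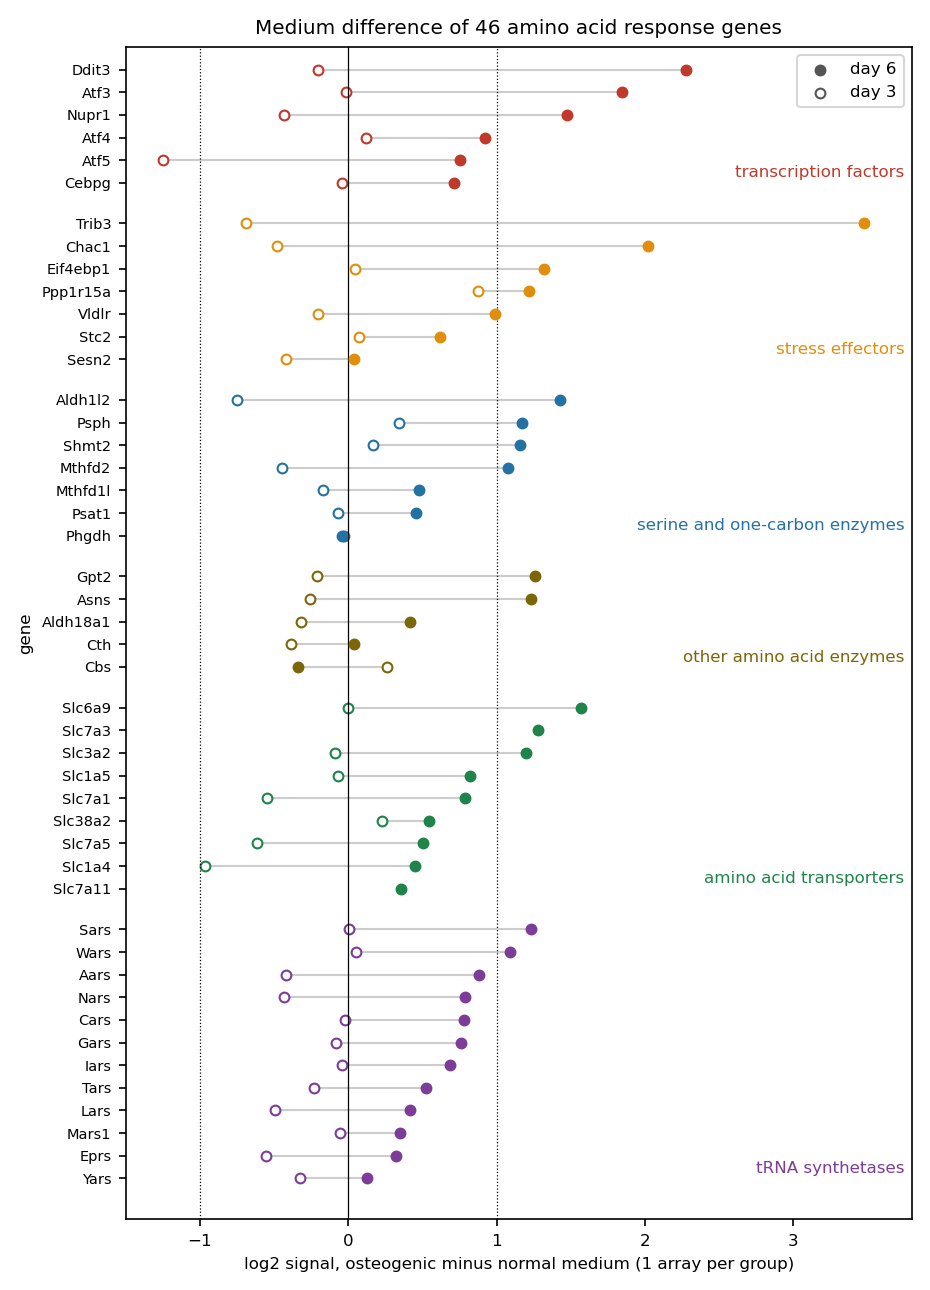
Log2 signal of osteogenic minus normal medium (x axis) for the 46 members with a probe set (y axis), grouped by role, with filled points for day 6 and open points for day 3 and dotted lines at 2-fold. Nearly all filled points lie to the right of zero and of their open point; Phgdh, Cth and Sesn2 sit near zero at day 6, Cbs lies below it, and Slc7a3 and Slc7a11 have no day 3 point because the probe set shown was below the floor on both day 3 arrays.

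The promoters of these genes were searched for the composite C/EBP-ATF motif, because members that moved together at day 6 are known as ATF4 targets. The motif TGATGNAA, or its reverse complement TTNCATCA, was looked for on both strands from 250 bases before to 50 after each RefSeq gene start in GRCm38.p6. It occurred for 14 of the 37 members that have such a window, Pycr1 among them, or 37.8%, against 4.51% of all 27025 genes with a window and 2.64% of 9626 genes measured at day 6. The members were chosen as known partners and targets of ATF4, so a higher share can follow from that choice. It is not a result of these arrays. Among the members it was found for 5 of 8 synthetases, 3 of 6 effectors, 2 of 6 transcription factors, 2 of 6 transporters, 2 of 5 other enzymes and 0 of 6 serine and one-carbon enzymes. The stretches below are those of the 5 members with a match that had the highest day 6 medium difference, read 5′ to 3′ on the gene's strand, with the match in capitals. For Chac1 (chr2:119350992-119351241, plus strand), Atf3 (chr1:191183334-191183583, minus strand), Nupr1 (chr7:126625471-126625720, minus strand) and Asns (chr6:7693210-7693459, minus strand) they are the 250 bases before the start. For Trib3 (chr2:152344028-152344057, minus strand) the match lies just past the start, and 30 bases around it are given.
Trib3: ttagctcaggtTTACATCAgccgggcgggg
Chac1: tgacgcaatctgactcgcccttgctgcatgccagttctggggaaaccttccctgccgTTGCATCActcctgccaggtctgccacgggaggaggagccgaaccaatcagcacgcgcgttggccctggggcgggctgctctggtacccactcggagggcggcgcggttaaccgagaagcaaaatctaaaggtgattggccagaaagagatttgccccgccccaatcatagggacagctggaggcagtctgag
Atf3: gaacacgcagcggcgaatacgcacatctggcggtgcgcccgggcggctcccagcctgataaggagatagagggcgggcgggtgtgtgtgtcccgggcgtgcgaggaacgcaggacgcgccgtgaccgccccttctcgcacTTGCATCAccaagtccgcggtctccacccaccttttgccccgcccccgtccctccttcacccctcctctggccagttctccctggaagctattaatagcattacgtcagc
Nupr1: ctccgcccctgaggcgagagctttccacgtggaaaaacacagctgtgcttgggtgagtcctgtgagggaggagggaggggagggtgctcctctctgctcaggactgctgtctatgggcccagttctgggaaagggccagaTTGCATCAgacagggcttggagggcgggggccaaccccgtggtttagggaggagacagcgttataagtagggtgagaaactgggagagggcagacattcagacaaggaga
Asns: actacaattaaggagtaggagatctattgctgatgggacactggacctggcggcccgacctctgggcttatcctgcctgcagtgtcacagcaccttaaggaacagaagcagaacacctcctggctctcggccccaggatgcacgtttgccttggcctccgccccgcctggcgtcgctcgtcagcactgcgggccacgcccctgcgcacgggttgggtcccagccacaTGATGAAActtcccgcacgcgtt
Of these, Trib3, Chac1, Atf3 and Nupr1 carry the match in reverse and Asns in the forward direction. The 13 measured members with a match had a median day 6 medium difference of 0.88 on the log2 scale (0.13 to 3.48), and the 23 with a window and no match had a median of 0.76 (-0.34 to 2.28), so the ranges overlapped. Past 2-fold at day 6 were 5 of the 13 and 9 of the 23, the 9 including Ddit3, Slc6a9 and Sars. Only these letters in this window were searched.

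**Figure D2:**
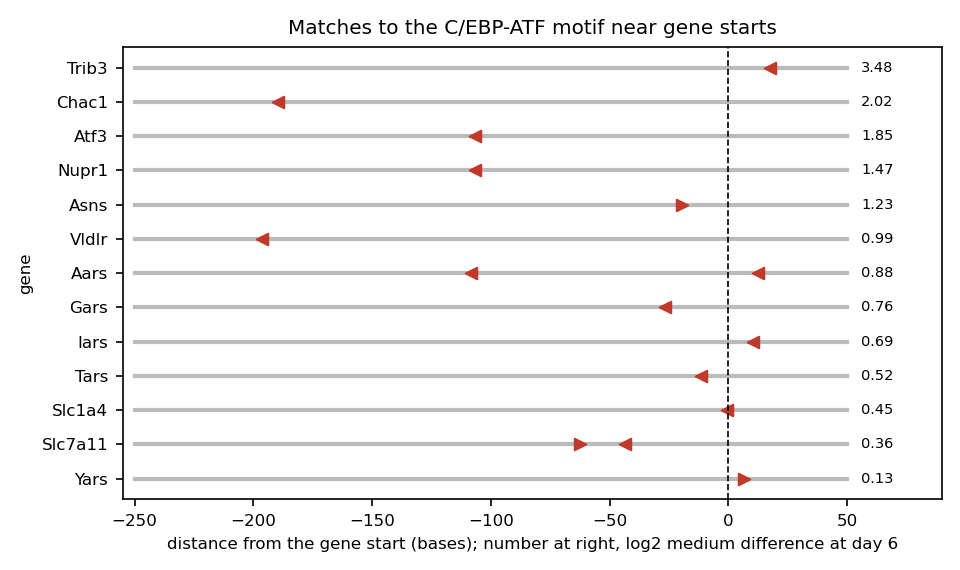
Position of each motif match (arrowheads, pointing right for the forward and left for the reverse direction) relative to the RefSeq gene start (dashed line, x axis in bases) for the 13 measured members with a match (y axis), ordered by their log2 medium difference at day 6, which stands at the right. Matches lie on both sides of the start, and members with one range from Trib3 at 3.48 to Yars at 0.13.

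Among the transcription factors, Atf4 itself differed less, by its brightest probe set, than several of the factors it is known to act with. The Atf4 signal at day 6 was 10998 in osteogenic and 5797 in normal medium, with 6579 in osteogenic and 6061 in normal medium at day 3. The day 6 osteogenic array thus stood above 3 arrays that lay close together, 1.90-fold above normal medium, or 0.92 on the log2 scale. A further Atf4 probe set, at 3286 in osteogenic against 1167 in normal medium at day 6, gave 1.49. That is close to the 1.47 of Nupr1, so the order of these factors depends on the probe set. Ddit3, which encodes CHOP, a factor induced in prolonged stress, had 6900.5 in osteogenic against 1423 in normal medium at day 6 and 1109 in osteogenic against 1279 in normal medium at day 3. Its day 6 signal was 4.85-fold higher in osteogenic medium, though a dim further probe set gave only 0.29 on the log2 scale. Atf3, a stress-induced repressor and activator of the same family, had 512 in osteogenic against 142 in normal medium at day 6, 3.60-fold higher, and 211 in osteogenic against 213 in normal medium at day 3. Nupr1, a small stress-induced chromatin protein, had 7614 in osteogenic against 2745 in normal medium at day 6, 2.77-fold higher, and 1884 in osteogenic against 2549 in normal medium at day 3. For Ddit3, Atf3 and Nupr1, as for Atf4, 1 array was high and the other 3 were low.

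Atf5, another ATF4-induced leucine zipper factor, had another pattern. Its signal was 12549 in osteogenic against 7430.5 in normal medium at day 6, but 5029 in osteogenic against 11941 in normal medium at day 3. The lowest array was the day 3 osteogenic one, 2.37-fold below normal medium, and Atf5 was the only member past 2-fold at that day. In normal medium its signal was also 1.61-fold lower at day 6 than at day 3. The Atf5 values rest on 1 probe set. Cebpg, a C/EBP protein that pairs with ATF4, had the smallest day 6 difference of the class, with 1353 in osteogenic against 828 in normal medium at day 6 and 982 in osteogenic against 1014 in normal medium at day 3. All 6 factors lay above zero at day 6, 3 of them past 2-fold, and the class median was 1.20.

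The stress effectors held the widest spread. Trib3, a pseudokinase that feeds back on ATF4 and CHOP, had 4609 in osteogenic against 414 in normal medium at day 6, and 519.6 in osteogenic against 839.9 in normal medium at day 3. This was 11.1-fold higher at day 6, the highest ratio of all 46 members, and 1.62-fold lower at day 3. Chac1, which degrades glutathione, had 2194 in osteogenic against 541 in normal medium at day 6, 4.05-fold higher, and 672 in osteogenic against 935 in normal medium at day 3. Eif4ebp1, a translation repressor that binds the cap-binding protein eIF4E, had 8099.7 in osteogenic against 3249 in normal medium at day 6, 2.49-fold higher, and 4717 in osteogenic against 4569 in normal medium at day 3.

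Ppp1r15a encodes GADD34, the phosphatase subunit that restores eIF2 and so ends the response. It had 1578 in osteogenic against 679.7 in normal medium at day 6 and 641 in osteogenic against 349.96 in normal medium at day 3. It was the only member that was more than 1.5-fold higher at both days, 2.32-fold and 1.83-fold. Sesn2, a sestrin that senses leucine, had nearly equal signals at day 6, 1035 in osteogenic against 1008 in normal medium, and 802 in osteogenic against 1072 in normal medium at day 3. Its other probe set disagreed, with 1027 in osteogenic against 701 in normal medium at day 6, a log2 difference of 0.55. Vldlr, a lipoprotein receptor, stood at 1.98-fold at day 6 by its brightest probe set, just under the threshold. Its further probe sets gave 0.64, 1.03, 1.16, 1.25 and 1.37 on the log2 scale, so its side of the threshold depends on the probe set. Stc2, a secreted glycoprotein, was at least 1.53-fold higher, from the floor in normal medium. The Stc2 value rests on 1 dim probe set, at 88.6 in osteogenic medium at day 6. Its other probe sets were below the floor on every array. All 7 effectors lay above zero at day 6, 4 past 2-fold, with a class median of 1.21.

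**Figure D3:**
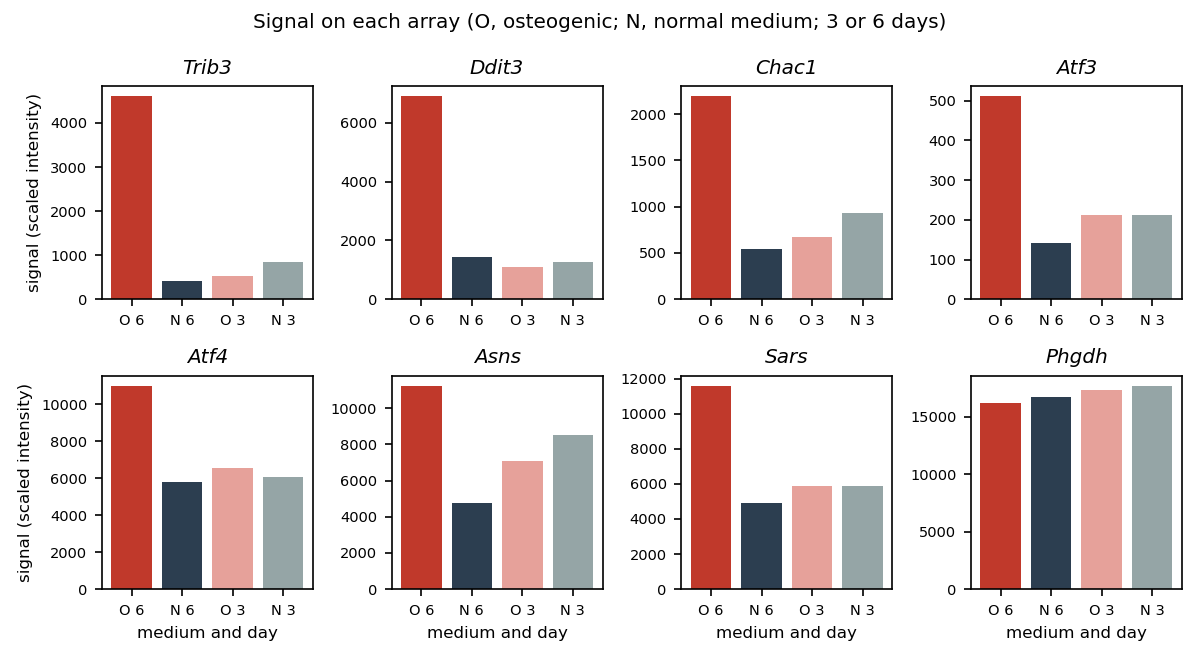
Signal (scaled intensity, linear axis from 0) on each of the 4 arrays for 8 members, with bars for osteogenic then normal medium at day 6 and then at day 3, 1 array per bar. For Trib3, Ddit3, Chac1, Atf3, Atf4, Asns and Sars the day 6 osteogenic bar is the highest, while the 4 bars of Phgdh lie between 16183 and 17662.

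Serine and one-carbon enzymes varied along the pathway. Phgdh, which commits a glycolytic intermediate to serine synthesis, had 16183 in osteogenic against 16699 in normal medium at day 6 and 17293 in osteogenic against 17662 in normal medium at day 3, a level that hardly varied. The next enzyme, Psat1, had a log2 medium difference of 0.46 at day 6. Psph, the phosphatase that releases serine, had 3007 in osteogenic against 1334 in normal medium at day 6, 2.25-fold higher, and 2049 in osteogenic against 1614 in normal medium at day 3. The mitochondrial folate enzymes that follow were also higher at day 6. Shmt2, which splits serine into glycine and a folate-bound carbon, had 4855 in osteogenic against 2181 in normal medium at day 6, 2.23-fold higher, and 3026 in osteogenic against 2695 in normal medium at day 3. Mthfd2, which oxidises that carbon, had 4579 in osteogenic against 2176 in normal medium at day 6, 2.10-fold higher, and 2481 in osteogenic against 3375 in normal medium at day 3.

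Aldh1l2, which turns mitochondrial formyl-folate into carbon dioxide and NADPH, had 6738 in osteogenic against 2503 in normal medium at day 6, 2.69-fold higher. At day 3 the order was turned, with 2421 in osteogenic and 4079 in normal medium, a 1.68-fold lower signal. Mthfd1l, which releases formate from mitochondria, stood at 0.48 on the log2 scale at day 6. In all, 6 of 7 lay above zero at day 6 and 4 were past 2-fold, with a class median of 1.07. The cytosolic counterparts Shmt1 and Mthfd1 had log2 medium differences of -0.36 and -0.42 at day 6. The list of 13 other folate enzymes and carriers had a median of 0.13 over 8 measured genes, with Mthfd2l, a mitochondrial relative of Mthfd2, the only one past 2-fold, at 1.34 at day 6 and 1.24 at day 3.

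Of the other amino acid enzymes, Asns and Gpt2 were past 2-fold, and the transsulfuration enzymes Cth and Cbs lay near or below zero. Asns, asparagine synthetase, the classic target of the amino acid response, had 11236 in osteogenic against 4782 in normal medium at day 6, 2.35-fold higher, and 7098 in osteogenic against 8505 in normal medium at day 3. Gpt2, the mitochondrial alanine aminotransferase, had 1998 in osteogenic against 834 in normal medium at day 6, 2.40-fold higher, and 730.4 in osteogenic against 846 in normal medium at day 3. Aldh18a1, which begins proline synthesis from glutamate, had a log2 medium difference of 0.42 at day 6. Cbs, which joins serine and homocysteine, had 84.0 in osteogenic against 106 in normal medium at day 6 and 144 in osteogenic against 120 in normal medium at day 3, not far above the floor throughout. Cth, the next enzyme towards cysteine, stood at 0.04 at day 6, and the class median over 5 genes was 0.42. Of 13 other amino acid enzymes measured outside the members, 2 were higher by 2-fold at day 6, the aspartate aminotransferase Got1 (1.26) and the branched-chain aminotransferase Bcat1 (1.11), and the median was 0.06.

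All 9 transporter genes lay above zero at day 6, with a median of 0.79 and 3 past 2-fold. Slc6a9, the glycine transporter GlyT1, had 1740.5 in osteogenic against 586 in normal medium at day 6, 2.97-fold higher, and 742 in osteogenic against 744 in normal medium at day 3. Slc3a2, the heavy chain that carries several light chains to the membrane, had 8389.6 in osteogenic against 3658 in normal medium at day 6, 2.29-fold higher, and 3885 in osteogenic against 4145 in normal medium at day 3. Its partner for large neutral amino acids, Slc7a5, differed less, with log2 values of 0.50 at day 6 and -0.61 at day 3. Its partner for cystine, Slc7a11, had 74.0 in osteogenic against 24.8 in normal medium at day 6 and 55.7 in osteogenic against 38.0 in normal medium at day 3. Only the first is above the floor, so the day 6 signal was at least 1.28-fold higher in osteogenic medium. A second probe set, at 85.9 in osteogenic medium and below the floor in normal medium at day 6, gave a bound of 0.57 on the log2 scale, and 0.08 at day 3.

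Slc7a3, a cationic amino acid carrier, had 140 in osteogenic against 44.6 in normal medium at day 6 and 48.8 in osteogenic against 24.7 in normal medium at day 3. Again only the first is above the floor, which gives at least a 2.42-fold higher signal in osteogenic medium at day 6. This bound depends on the floor, and with the floor at percentile 60 it was 0.23 on the log2 scale, no longer past 2-fold. The related Slc7a1 was at 0.79, the glutamine carriers Slc1a5 and Slc38a2 at 0.82 and 0.54, and the neutral amino acid carrier Slc1a4 at 0.45. Slc1a4 was also the member after Atf5 with the lowest value at day 3, -0.96, though its 2 other probe sets gave 0.41 and -0.37. Of 14 other amino acid transporters measured, 3 were higher by 2-fold at day 6, the taurine carrier Slc6a6 (1.58), the neutral amino acid carrier Slc43a1 (1.57) and the lysosomal Slc38a9 (at least 1.04), and 1 was lower, Slc43a2 (-1.61), with a median of 0.12.

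All 12 cytosolic tRNA synthetases among the members lay above zero at day 6, between 0.13 and 1.23, with a median of 0.72. These enzymes attach amino acids to their tRNAs. Sars, for serine, had 11589 in osteogenic against 4933 in normal medium at day 6, 2.35-fold higher, and 5893 in osteogenic against 5870.4 in normal medium at day 3. Wars, for tryptophan, had 1117 in osteogenic against 524 in normal medium at day 6, 2.13-fold higher, and 696 in osteogenic against 672 in normal medium at day 3. Yars, for tyrosine, had the smallest difference, with 1137 in osteogenic against 1042 in normal medium at day 6 and 882 in osteogenic against 1104 in normal medium at day 3. Between these came Aars (0.88), Nars (0.79), Cars (0.78), Gars (0.76), Iars (0.69), Tars (0.52), Lars (0.42), Mars1 (0.35) and Eprs (0.32). At day 3, 10 of the 12 lay below zero, from -0.55 to 0.05.

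Synthetases outside the members had medians nearer zero at day 6. The list of 11 other cytosolic synthetases and scaffold proteins of the multisynthetase complex had 10 genes measured, of which 3 lay above zero and 0 were past 2-fold at day 6, with a median of -0.06 and a range of -0.45 to 0.42. Its lowest members were Hars (-0.45) and Kars (-0.43), and Qars, Rars and Vars stood at -0.11, -0.04 and -0.09. Of 15 mitochondrial synthetases measured at day 6, 11 lay above zero and 0 were past 2-fold, with a median of 0.16. Their range was wide, from -0.95 for Vars2 to 0.62 for Aars2. At day 3 the first list ranged from -0.17 to 0.59 and the mitochondrial list from -0.84 to 1.61. The highest, Aars2, was past 2-fold at that day. The motif described above was found for 0 of 8 genes of the first list and 0 of 14 of the second that have a promoter window. The members and these lists were chosen with earlier results of these data known, so the contrast may follow from that choice. No test of the difference between these lists was made.

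**Figure D4:**
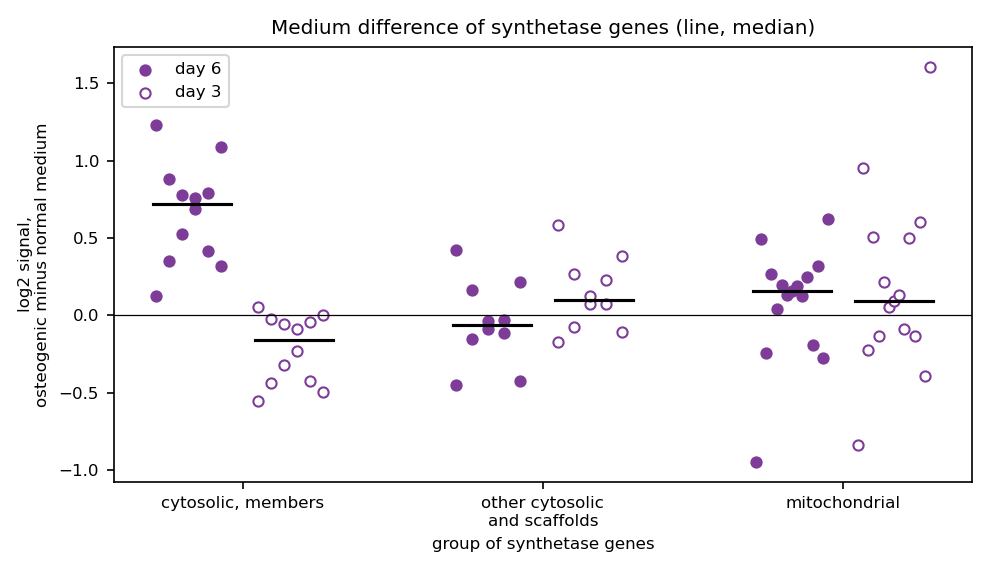
Log2 signal of osteogenic minus normal medium (y axis) for 3 groups of synthetase genes (x axis), with filled points for day 6, open points for day 3 and a line at each median. The member synthetases have a median of 0.72 at day 6, the other cytosolic synthetases and scaffolds -0.06 and the mitochondrial synthetases 0.16, and the points of the 3 groups overlap. The groups were chosen with earlier results of these data known.

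Transcripts of the genes upstream of ATF4 lay near zero at day 6, Eif2b2 excepted. The eIF2 kinases Eif2ak1, Eif2ak2, Eif2ak3 and Eif2ak4 had log2 medium differences of 0.11, -0.07, -0.03 and -0.21. The list of 12 measured genes held these kinases, the eIF2 and eIF2B subunits and Ppp1r15b (0.06). Of the 12, 1 was past 2-fold, Eif2b2 (1.13), and the median was 0.01. Phosphorylation of eIF2 and ATF4 protein were not measured here. A further 11 measured genes known as ATF4 targets had a median of 0.83, with 10 above zero. The 4 past 2-fold were Herpud1, of protein degradation from the endoplasmic reticulum (1.60), the growth factor gene Vegfa (1.56), the mitochondrial carboxykinase gene Pck2 (1.42) and the cell cycle inhibitor gene Cdkn1a (1.19).

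The classes differed in their medians at day 6, from 1.21 for effectors, 1.20 for transcription factors and 1.07 for serine and one-carbon enzymes to 0.79 for transporters, 0.72 for synthetases and 0.42 for other enzymes. Their ranges overlapped, from 0.04 to 3.48 for effectors against 0.13 to 1.23 for synthetases, and no test between classes was made.

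Time courses in the 2 media ran in opposite directions, by sign, for most members. In osteogenic medium 44 of 46 members were above zero in the difference of day 6 minus day 3, 13 were higher by 2-fold and 0 lower, with a median of 0.66. Over all genes measured there, 49.9% lay above zero, 3.65% were higher and 2.62% lower. Ddit3 was 6.22-fold higher at day 6 than at day 3 in osteogenic medium, Trib3 8.87-fold and Nupr1 4.04-fold. In normal medium 40 of 43 members were below zero, with a median of -0.36, 0 higher by 2-fold and 1 lower, Trib3, by 2.03-fold. This last call was lost under each of the 3 other scalings and when probe sets were averaged. The median of -0.36 is close in size to the SD of this difference between probe sets of 1 gene, 0.32 in normal medium. That SD was 0.36 in osteogenic medium. The sign of a small difference is therefore uncertain. Over all genes in normal medium 47.8% lay above zero, 0.742% were higher by 2-fold and 0.717% lower, or 116 higher and 66 lower in place of 87 and 84 genes when arrays were shifted to a common median.

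Of 43 members measured in both courses, 38 were above zero in osteogenic and below zero in normal medium, 88.4%, against 2457 of 11181 genes measured in both, or 21.97%. By the brightest probe sets, the 3 above zero in both were Ddit3, Nupr1 and Ppp1r15a. The 2 below zero in both were Phgdh and Cbs. A dim Ddit3 probe set gave 1.15 in osteogenic and -0.13 in normal medium. The 3 other Phgdh probe sets gave 0.08 to 0.18 in osteogenic and -0.18 to -0.09 in normal medium, the pattern of most members. Among 26 members compared in normal medium, the next brightest probe set reversed the sign for Ddit3, Psat1 and Slc6a9. Among 28 in osteogenic medium it did so for Cars, Phgdh and Slc38a2. Among the synthetases all 12 lay below zero in normal medium, from -0.45 to -0.08, and all 12 above zero in osteogenic medium, from 0.04 to 0.98. The medium difference at day 6 for Asns held a larger signal in osteogenic medium (0.66 above day 3) and a smaller one in normal medium (-0.83 from day 3). A further Asns probe set gave 0.65 in osteogenic and -0.41 in normal medium, so which part was larger depends on the probe set. For Ddit3 the difference between days was 2.64 in osteogenic medium, against 0.15 in normal medium.

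**Figure D5:**
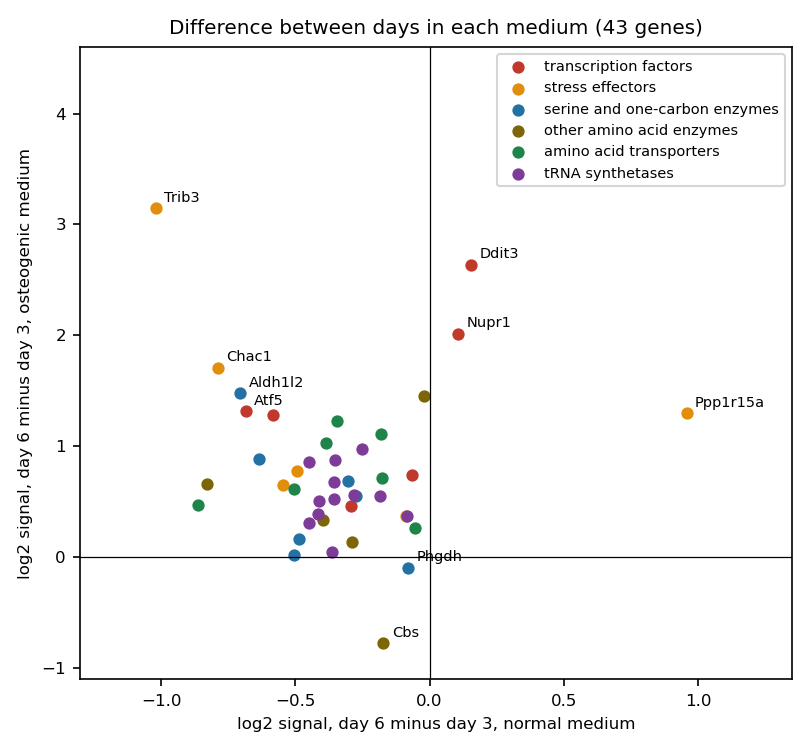
Log2 signal of day 6 minus day 3 in osteogenic medium (y axis) against the same in normal medium (x axis) for the 43 members measured in both, coloured by class, each axis from its own pair of arrays. Most points, 38 of 43, lie in the upper left part of the plot, with Ddit3, Nupr1 and Ppp1r15a to the right of it and Phgdh and Cbs below.

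The change of the medium difference, day 6 minus day 3, uses all 4 arrays and so shares them with every comparison above. It lay above zero for 42 of 44 members, and was past 2-fold upwards for 21 and downwards for 0, with a median of 0.95. Over all 11256 genes measured at both days, 48.7% lay above zero, 4.47% were past 2-fold upwards and 3.21% downwards, and the median was -0.01. The highest value was that of Trib3, 4.17, followed by Chac1 (2.50) and Ddit3 (2.48), and the lowest were Cbs (-0.60) and Phgdh (-0.01).

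The 46 members had 100 probe sets in all, of which 88 were above the floor on all 4 arrays and 95 on at least 1. Where a gene had several, the values above come from the probe set whose log2 signal, before the floor was set, averaged highest. At day 6, 26 members had a further measured probe set, and in 25 the next brightest had the same sign. The exception was Phgdh, with -0.05 by the main probe set and 0.05 to 0.24 by its 3 others. Of 11 such members past 2-fold by the main probe set, 10 were past it by the other as well. The exception was Ddit3, whose dim probe set, at 140 in osteogenic against 114 in normal medium, gave 0.29 in place of 2.28. Trib3 had 3.48 by one probe set and 2.48 by the other, and Atf4 had 0.92 and 1.49, with another probe set below the floor on all 4 arrays.

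Phgdh, Shmt2, Eif4ebp1, Wars, Vldlr and Aldh18a1 were represented by probe sets whose suffix, x, marks probes that may also match other transcripts. Their brightest probe sets without that suffix gave 1.04 for Shmt2, 1.38 for Eif4ebp1, 1.20 for Wars, 0.64 for Vldlr and 0.49 for Aldh18a1 at day 6, and Phgdh had none. At day 3, 20 of 27 members had the same sign in both probe sets. The SD of the log2 medium difference between probe sets of 1 gene, over 5637 genes at day 6, was 0.35, and 0.35 at day 3 over 5659. This is a probe error, not a spread between cultures, and most day 3 differences of the members were smaller than it in size. For 16 members the array has 1 probe set, so no such comparison exists.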

How the data were processed

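Total RNA of 4 samples was hybridised to Affymetrix mouse whole-genome expression arrays. Per the labels' protocols, RNA was column-purified with DNase, passed an integrity number above 9.5, and 500 ng was labelled by 3′ in vitro transcription. The authors deposited 1 linear intensity per probe set and array; the mean of each array, trimmed by 2% at either end, was 500, so arrays were already scaled to each other, which removes any difference in RNA per cell. The software is not given in the sources used here.

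Of 45101 probe sets, 64 were controls, 34945 had 1 gene symbol in GEO's annotation of the array, 932 several and 9160 none; the last 2 kinds entered no gene. Arrays were shifted to a common 75th percentile, values below the pooled 50th percentile (57.8) were set to it, and log2 was taken. Of several probe sets for a gene, the one whose log2 signal before the floor averaged highest stood for it. Where 1 of the 2 arrays was at the floor, the fold is a lower bound. Higher or lower means 2-fold. No detection calls were used, the number of arrays limits the precision, and any 2 arrays correlated across probe sets with Pearson's r of 0.980 to 0.992. Promoter windows came from RefSeq, GRCm38.p6, matched by Entrez ID. The steps were tested on simulated data with known, large changes in bright genes. The simulated noise was below the probe error found here, so small differences and signals near the floor were not covered. Python 3.11.15, pandas 2.3.3 and numpy 2.4.6 were used.

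The members and all lists were chosen with earlier results of these data known. Values on every array are given for Atf4, each member past 2-fold between media, and the members with the largest and smallest day 6 difference of each class; of other lists, those past 2-fold at day 6 are named, up to 4 each, with Shmt1 and Mthfd1. Alternatives were 3 scalings, 2 floors, a pseudocount of 32, neither floor nor filter, a stricter filter, and the mean or median of a gene's probe sets.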

Additional observations from a re-analysis of the deposited data

Results flagged for a closer look

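Atf5, Trib3 and Aldh1l2 had medium differences past 1.5-fold in opposite directions at the 2 days, and the difference between days was not tested. Atf5 was at 0.76 on the log2 scale at day 6 and -1.25 at day 3, a change of 2.00. Trib3 was at 3.48 at day 6 and -0.69 at day 3, a change of 4.17. Aldh1l2, the mitochondrial formyl-folate dehydrogenase, was at 1.43 at day 6 and -0.75 at day 3, a change of 2.18. For Atf5 and Aldh1l2 the array has 1 probe set each.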

How the results depend on the processing

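Under all 10 alternatives the members' median medium difference stayed between 0.74 and 0.85 at day 6 and between -0.21 and -0.13 at day 3, and 17 to 19 members were higher by 2-fold at day 6. Of the 18 past 2-fold at day 6, 15 stayed past it in every alternative that gave a value; the exceptions were Shmt2 (down to 0.97), Wars (0.87) and Slc7a3 (0.23 with a floor at percentile 60). With that floor the class median became 0.66 for transporters and 0.82 for other enzymes. With the mean of all probe sets it became 0.51 for transporters, 0.57 for synthetases and 1.05 for transcription factors, and with the median of all probe sets 0.50, 0.57 and 1.39, and 0.97 for serine and one-carbon enzymes. Between days in normal medium 1 member, in place of 0, was higher by 2-fold with a shift to a common median. The 1 lower member, Trib3, became 0 with no further scaling, a common median, quantile normalization, the pseudocount, and the mean or median of probe sets; the cause was not tested. Members above zero at day 6 numbered 42 of 46 with a common median. Counts over all genes moved by more than 1.5 times in some alternatives, which test fewer or more dim genes. The 488 higher and 330 lower at day 6 became 2525 and 2195 with neither floor nor filter and 353 and 211 with the mean of probe sets. The 233 and 184 at day 3 became 2329 and 2084, 160 and 97, and with floors at percentiles 40 and 60, 388 and 347, and 134 and 91. Between days in osteogenic medium, 435 and 312 became 2383 and 2290 with neither, 288 and 221 with the mean, and 609 and 473 with the lower floor. In normal medium, 87 and 84 became 2025 and 2018, 57 and 40, and 207 and 219 in these, 36 and 22 with the higher floor, 156 and 177 with the pseudocount, and 65 and 52 with the stricter filter. For the change, 503 and 361 became 3044 and 2868, 315 and 231, 795 and 587, and 306 and 239 with the higher floor. No paired analysis was possible because each group has 1 array, so that the groups share a single replicate number. Without the day 6 osteogenic array no day 6 medium comparison exists. Signal near the floor limits Slc7a3, Slc7a11, Stc2 and Cbs.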
